A study of Rattus norvegicus with 18 samples.

Results

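Atp2a2 and Ryr2 carry calcium across the membrane of the sarcoplasmic reticulum, the calcium store of heart muscle, in opposite directions. Both genes were followed through 18 hearts of 3-week-old male Wistar rat offspring. They were chosen by name, as Ensembl IDs ENSRNOG00000001285 (Atp2a2) and ENSRNOG00000017060 (Ryr2), and are 2 of the 30560 genes in the deposited count table. The names came with the IDs and were not checked against an annotation that pairs them: of 47357 genes in the RefSeq table used here, 0 carry an Ensembl ID. Both symbols are in that table.

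The hearts fall into 3 groups by what the offspring met in gestation: vehicle (7 hearts), cannabidiol at 3 mg/kg/day (CBD3, 6 hearts) or cannabidiol at 30 mg/kg/day (CBD30, 5 hearts). Cannabidiol is a cannabinoid of the cannabis plant that does not intoxicate. All groups share strain, sex and age. The labels do not say which offspring share a dam, so p-values measure only the spread between these hearts and take each as independent, with any likeness of littermates making them too small.

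In a heartbeat, calcium that enters through L-type channels opens the ryanodine receptor, and calcium stored in the sarcoplasmic reticulum flows out to the myofilaments. Ryr2 encodes the ryanodine receptor of heart muscle, the release channel. Atp2a2 encodes SERCA2, the pump that uses ATP to return calcium to the store so that the muscle relaxes. Activity of the pump and load of the store both bear on the strength and speed of contraction.

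The sequence just before the start of each gene is shown because the levels of both genes were correlated over the 18 hearts. Whether the sequences bear on that correlation was not tested. The sequences are RefSeq's on build GRCr8, plus strand: chr12:39733269-39733518 for Atp2a2 and chr17:63081277-63081526 for Ryr2, 250 bases each, ending at the base before the annotated start. The counts were made on build mRatBN7.2, so these positions do not apply to them. Capitals mark matches to the GC box (GGGCGG) and the CCAAT box (CCAAT) on either strand.
Atp2a2: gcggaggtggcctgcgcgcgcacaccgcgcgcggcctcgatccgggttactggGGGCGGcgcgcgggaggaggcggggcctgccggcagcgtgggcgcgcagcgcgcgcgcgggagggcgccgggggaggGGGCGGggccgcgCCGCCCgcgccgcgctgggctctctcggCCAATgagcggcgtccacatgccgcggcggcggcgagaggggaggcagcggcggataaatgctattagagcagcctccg
Ryr2: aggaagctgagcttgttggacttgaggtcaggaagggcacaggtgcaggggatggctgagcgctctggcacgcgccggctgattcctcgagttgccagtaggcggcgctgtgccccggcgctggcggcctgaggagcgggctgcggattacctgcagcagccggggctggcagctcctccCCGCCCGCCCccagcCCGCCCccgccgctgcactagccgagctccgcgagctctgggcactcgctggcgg

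Both windows are rich in G and C, at 80.0% for Atp2a2 and 72.0% for Ryr2, where the median of 33469 promoter windows of the same length is 51.2%. Each holds 3 GC boxes, where 30.5% of all windows hold at least 1. The motif is itself made of G and C, and windows equally rich in G and C were not counted apart. The GC boxes of Atp2a2 begin 197, 120 and 107 bases before the start. Those of Ryr2 begin 70, 66 and 55 bases before it, the first pair overlapping. Atp2a2 has 1 CCAAT box, 79 bases before the start, and Ryr2 has none, where 34.0% of windows hold one. Each window has 1 E-box (CANNTG), as 65.5% of windows have at least 1. Neither has the letters TATAAA or CATTCC. These matches describe the letters only.

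Library totals ran from 44321480 to 80451013 counts for vehicle hearts, from 56992503 to 89240727 for CBD3 hearts and from 44127009 to 82220752 for CBD30 hearts. Both genes are abundant in these hearts. Atp2a2 took between 0.529% and 1.095% of a library's counts and Ryr2 between 0.0365% and 0.167%. The smallest count was 243063 for Atp2a2 and 16805 for Ryr2, so counting error was at most 0.203% and 0.771% of a value. Levels below are CPM, a library's counts scaled to a common total, with TMM, factors that allow for differences in RNA composition between libraries. They are not divided by transcript length, so they compare hearts and not the 2 genes. In whole hearts, fewer muscle cells and less RNA per cell cannot be told apart.

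Each column of the table carries a code of 2 numbers, such as 2.1, which no label explains, and hearts are named here by group and code. Libraries whose code ends in digit 1 held 63672078 to 89240727 counts, and those ending in digit 2 held 44127009 to 67302419. On the first principal component of log2 CPM, which held 29.8% of the variance, 3 hearts lay farthest from the centre. These were vehicle 1.1 and 2.1 on one side and CBD30 2.1 on the other. All 3 codes end in digit 1. Below, the fold changes against vehicle, the correlation of the genes and the counts of hearts below the vehicle median are also given without these hearts or within a digit.

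The pump gene Atp2a2 varied most among vehicle hearts. Its lowest vehicle value was 4675 CPM (heart 2.2), its median 8401 CPM and its highest 10102 CPM (heart 2.1). In CBD3 hearts it ran from 7021 CPM to 9019 CPM (heart 1.2), with a median of 7628 CPM. The 5 CBD30 hearts stood close together, at 6522, 6624, 6647, 7273 and 7623 CPM. Every CBD3 and CBD30 heart lay within the range of the vehicle hearts. The means were 8020 ± 1777 CPM for 7 vehicle hearts, 7710 ± 732 CPM for 6 CBD3 hearts and 6938 ± 484 CPM for 5 CBD30 hearts (± SD). The means of neighbouring groups in that order differed by less than 1 SD of the vehicle hearts, while CBD30 and CBD3 differed by more than either of their own SDs.

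The release channel gene Ryr2 had the same order of means with a wider spread. In vehicle hearts its lowest value was 323 CPM (heart 2.2), its median 846 CPM and its highest 1536 CPM (heart 2.1), a range of 4.75-fold. CBD3 hearts ran from 594 CPM to 1162 CPM (heart 1.2), with a median of 688 CPM. The 5 CBD30 hearts were at 464, 593, 661, 736 and 793 CPM. As for the pump, no CBD heart lay outside the vehicle range, and the hearts at both ends of that range were the same as for Atp2a2. The means were 894 ± 390 CPM for 7 vehicle hearts, 764 ± 205 CPM for 6 CBD3 hearts and 650 ± 128 CPM for 5 CBD30 hearts (± SD), each within 1 SD of its neighbour by the larger SD.

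**Figure D1:**
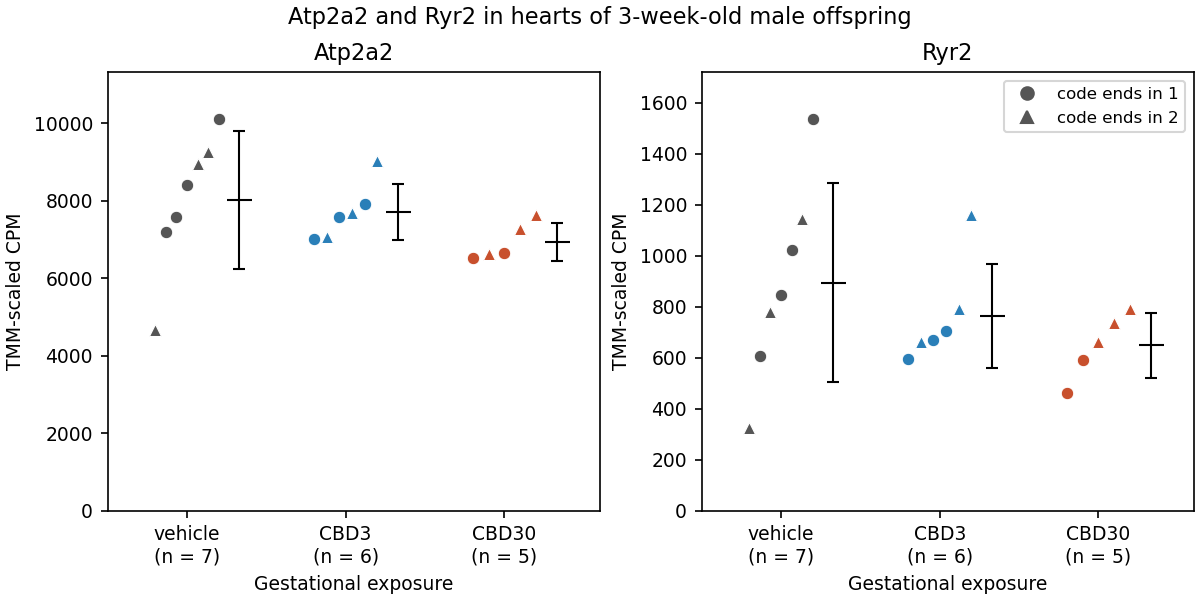
TMM-scaled CPM (y axis, from 0) of Atp2a2 (left) and Ryr2 (right) by gestational exposure (x axis); each point is 1 heart, circles and triangles mark codes ending in 1 and 2, and the bar is the mean ± SD. All CBD3 and CBD30 hearts lie inside the vehicle range, which runs from 4675 to 10102 CPM for Atp2a2 and from 323 to 1536 CPM for Ryr2.

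Most CBD hearts lay on the low side of the vehicle hearts without leaving their range. For each gene, 5 of 5 CBD30 hearts and 5 of 6 CBD3 hearts were below the vehicle median. The exception was heart CBD3 1.2 in both cases. This count was noticed after the values were seen and was not tested. For Ryr2 it depended on which hearts were counted: 5 of 5 CBD hearts were below the vehicle median among the digit 1 hearts, 3 of 6 among the digit 2 hearts and 7 of 10 without the 3 hearts far out. For Atp2a2 these counts were 5 of 5, 5 of 6 and 9 of 10.

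The comparison of CBD30 with vehicle asks whether the higher dose in gestation was followed by another level of these transcripts in the heart. For Ryr2 the difference was -27.4%, a log2 fold change of -0.46 ± 0.27 (SE; edgeR quasi-likelihood test, adjusted p = 0.389). The 95% interval ran from -50.8% to 7.29%. For Atp2a2 the difference was -13.5%, or -0.21 ± 0.15 as a log2 fold change (SE; adjusted p = 0.468, edgeR), with an interval of -30.1% to 7.06%. Exact two-sided permutation tests of mean log2 CPM gave p = 0.348 for Ryr2 and 0.359 for Atp2a2 (5 against 7 hearts, not adjusted). The means they compare were 9.32 in CBD30 and 9.67 in vehicle hearts for Ryr2, and 12.76 and 12.93 for Atp2a2. As log2 fold changes limma voom gave -0.34 for Ryr2 and -0.17 for Atp2a2, and DESeq2 -0.45 and -0.19. The difference was smaller than the spread of the vehicle hearts for both genes.

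With edgeR neither gene had an unadjusted p under 0.05 in this comparison (Ryr2 0.103, Atp2a2 0.171), and DESeq2 and limma voom called neither (adjusted p = 0.349 and 0.524 for Ryr2, 0.470 and 0.537 for Atp2a2). Across all genes, 0% of 17009 tested genes passed an adjusted p of 0.05 and 7.31% were lower in CBD30 at an unadjusted p under 0.05. The 0% rested on vehicle 3.1: without that heart edgeR called 267 genes for CBD30 against vehicle and 733 for both doses against vehicle, with neither Ryr2 (adjusted p = 0.246 and 0.230, edgeR) nor Atp2a2 (0.383 and 0.468) among them. Leaving out any other single heart gave at most 2 calls. The median log2 fold change of all tested genes was -0.021. In the order CBD30 against vehicle, CBD3 against vehicle, CBD30 against CBD3 and both doses against vehicle, DESeq2 called 134, 19, 1 and 237 genes and limma voom 0 in each, with neither gene among them.

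For CBD3 against vehicle the differences were smaller. Ryr2 differed by -14.6%, or -0.23 ± 0.25 as a log2 fold change (SE; adjusted p = 0.711, edgeR), and Atp2a2 by -3.87%, or -0.057 ± 0.14 as a log2 fold change (SE; adjusted p = 0.876, edgeR). The 95% intervals ran from -40.9% to 23.4% for Ryr2 and from -21.4% to 17.6% for Atp2a2. Exact two-sided permutation tests gave p = 0.714 and 0.895 (6 against 7 hearts). Among all tested genes 0% passed the adjusted threshold, and 5.03% were lower in CBD3 at an unadjusted p under 0.05. Without vehicle 2.1 the log2 fold change of Ryr2 was -0.044 and that of Atp2a2 0.0067. Both comparisons use the same 7 vehicle hearts. For CBD3 against vehicle limma voom gave log2 fold changes of -0.11 for Ryr2 and -0.024 for Atp2a2, and DESeq2 -0.21 and -0.043.

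Between the doses, Atp2a2 was at 6938 CPM in CBD30 and 7710 CPM in CBD3 hearts, and 3 of 5 CBD30 hearts lay below the lowest CBD3 heart. The log2 fold change was -0.15 ± 0.15 (SE; adjusted p = 0.999, edgeR), an interval of -27.8% to 12.1%. This error is shared with the vehicle hearts. An exact two-sided permutation test on the 11 CBD hearts alone gave p = 0.0606, and edgeR fitted to these groups alone gave an unadjusted p of 0.132. For Ryr2 the log2 fold change was -0.23 ± 0.28 (SE; edgeR adjusted p = 0.999), an interval of -43.0% to 26.9% (exact permutation p = 0.323), and 2 of 5 CBD30 hearts lay below the lowest CBD3 heart. Without CBD30 2.1 it was -0.13, and without CBD3 1.2 it was -0.075. In this comparison 0% of genes passed the adjusted threshold and 0.994% were lower at an unadjusted p under 0.05.

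With both doses set together against vehicle, 11 hearts against 7, Ryr2 differed by -0.34 ± 0.22 on the log2 scale (SE; adjusted p = 0.379, edgeR) and Atp2a2 by -0.13 ± 0.12 (SE; adjusted p = 0.535, edgeR). The intervals were -42.6% to 8.13% for Ryr2 and -23.4% to 8.63% for Atp2a2. The edgeR contrast weights both doses equally, and exact two-sided permutation tests of the 11 hearts against the 7 gave p = 0.384 and 0.467. The log2 difference of Ryr2 was -0.16 without vehicle 2.1, -0.49 without vehicle 2.2 and -0.021 without the 3 hearts far out. That of Atp2a2 was -0.069, -0.23 and -0.077 in the same order. In all, 10 of 11 CBD hearts lay below the vehicle median for each gene, and 0 of 11 below the lowest vehicle heart. Of all tested genes 0% passed the adjusted threshold (lowest adjusted p = 0.0537 with edgeR), and 9.13% were lower at an unadjusted p under 0.05.

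The size of the Ryr2 difference depended on which hearts were set side by side. In the hearts whose code ends in digit 1, Ryr2 was at 1004 ± 394 CPM for 4 vehicle hearts and 657 ± 56.9 CPM for 3 CBD3 hearts (± SD), and 464 and 593 CPM in the 2 CBD30 hearts. In those ending in digit 2 it was at 749 ± 411 CPM in vehicle, 871 ± 260 CPM in CBD3 and 730 ± 66.4 CPM in CBD30 (n = 3 each). Vehicle exceeded both doses in the first set and lay between them in the second.

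The log2 fold change of Ryr2 for CBD30 against vehicle was -0.91 ± 0.31 (SE) in the digit 1 hearts (edgeR unadjusted p = 0.0148, adjusted 0.198) and -0.037 ± 0.37 (SE) in the digit 2 hearts (adjusted p = 0.998). For CBD3 the values were -0.61 ± 0.27 (unadjusted p = 0.0441, adjusted 0.390) and 0.22 ± 0.37 (adjusted p = 0.9999). For both doses together they were -0.76 ± 0.23 (unadjusted p = 0.00821, adjusted 0.128) and 0.091 ± 0.32 (adjusted p = 0.993). The difference between the digits was itself tested with an edgeR interaction term: for both doses together it was -0.86 on the log2 scale (unadjusted p = 0.0649, adjusted 0.314). The digit is not balanced over the groups: 4 vehicle, 3 CBD3 and 2 CBD30 hearts end in 1.

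The 3 hearts farthest out on the first component all have codes ending in 1, and they hold high or low Ryr2. Vehicle 2.1 and 1.1 had 1536 and 1025 CPM, and CBD30 2.1 had 464 CPM, the lowest of the CBD hearts. Without them the log2 fold change of Ryr2 was -0.089 ± 0.27 (SE) for CBD30 and 0.046 ± 0.24 for CBD3 against vehicle (edgeR adjusted p = 0.986 and 0.996). Both vehicle hearts lay above their group mean and CBD30 2.1 below its own, so leaving them out had to raise these values. What set these hearts apart was not tested. At the other end, leaving out vehicle 2.2, the lowest heart for both genes, gave -0.61 for Ryr2 and -0.31 for Atp2a2 in CBD30 against vehicle (edgeR unadjusted p = 0.0111 and 0.0117, adjusted 0.183 and 0.185).

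For Atp2a2 the same subsets moved less. The log2 fold change for CBD30 against vehicle was -0.32 ± 0.19 (SE) in the digit 1 hearts, -0.089 ± 0.26 in the digit 2 hearts and -0.14 ± 0.16 without the 3 hearts far out (edgeR adjusted p = 0.302, 0.998 and 0.949). For CBD3 against vehicle it was -0.15 ± 0.17, 0.054 ± 0.26 and -0.011 ± 0.15 (adjusted p = 0.647, 0.9999 and 0.996). For the pump gene the tested difference between the digits in both doses together was -0.23 (edgeR interaction, adjusted p = 0.634).

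**Figure D2:**
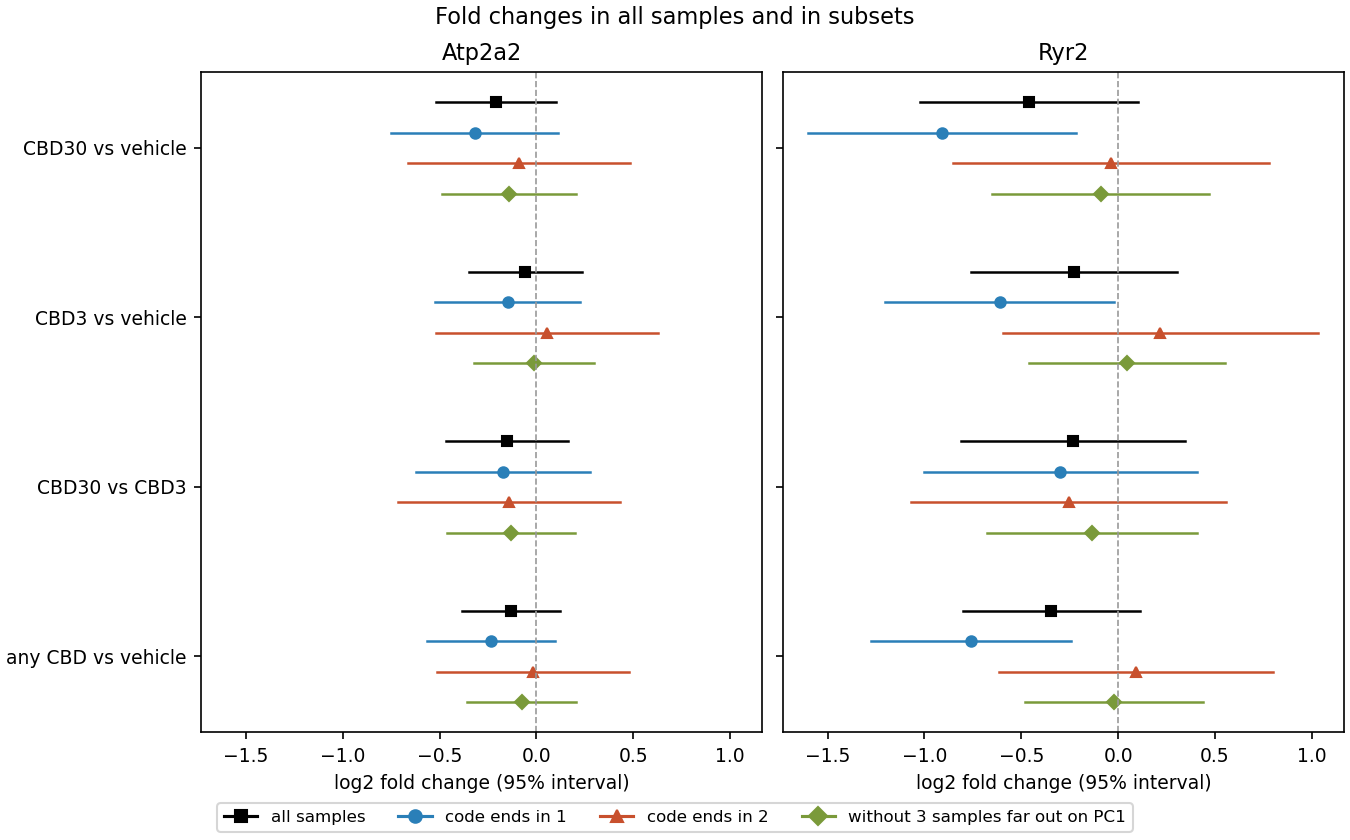
Log2 fold changes (x axis) with 95% intervals of Atp2a2 (left) and Ryr2 (right) for 4 comparisons (y axis), in all hearts (black), those whose code ends in 1 (blue) or 2 (red), and without the 3 hearts far out on the first principal component, PC1 (green). For Ryr2 against vehicle, points of the digit 1 hearts lie farthest left (-0.91 for CBD30) and those of the digit 2 hearts near 0 or above it.

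Heart-to-heart spread differed between the genes and between the groups. The SD of log2 CPM of Ryr2 was 0.72 in vehicle, 0.34 in CBD3 and 0.30 in CBD30 hearts, above that of 95.6%, 83.6% and 69.3% of the 13527 genes that averaged 1 CPM or more. For Atp2a2 it was 0.37, 0.13 and 0.099, above that of 74.8%, 28.9% and 7.80% of those genes. The median SD of these genes was 0.27, 0.19 and 0.23. Vehicle hearts thus had the widest spread for both genes, and whether the groups differ in spread was not tested.

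The pump and the release channel were correlated over all hearts, and within the vehicle and the CBD3 group by Pearson's r. Over the 18 hearts, log2 CPM of Atp2a2 and Ryr2 had a Pearson r of 0.853 (permutation p = 3e-05, 100000 resamples) and a Spearman rho of 0.732 (permutation p = 0.00088). This was the only relation between measures tested, by both coefficients and again in subsets of hearts, and its p-values are not adjusted. It was chosen with earlier results of these data known. Both values of a heart share its library total and scaling factor. With group means removed r was 0.842. Without vehicle 2.1 and 2.2, the hearts farthest from the median Atp2a2 level, r was 0.660 (permutation p = 0.00534). Without the 3 hearts far out on the first component it was 0.872 (permutation p = 0.00029, n = 15).

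Within the code digits the relation held by Pearson's r, at 0.838 in the digit 1 hearts and 0.894 in the digit 2 hearts (exact permutation p = 0.00752 and 0.00616, n = 9 each). By rank it was 0.833 and 0.6 (exact permutation p = 0.00827 and 0.0968), so the rank relation did not pass in the digit 2 hearts. Among the 7 vehicle hearts r was 0.872 (exact permutation p = 0.0161, rho 0.643, exact p = 0.139), and among the 6 CBD3 hearts 0.935 (exact permutation p = 0.0125, rho 0.943, exact p = 0.0167). For CBD30 no correlation is given, as for any set under 6 hearts. In order of rising Atp2a2 the CBD30 hearts had Ryr2 at 464, 793, 593, 736 and 661 CPM, so the genes did not rise together there heart by heart.

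**Figure D3:**
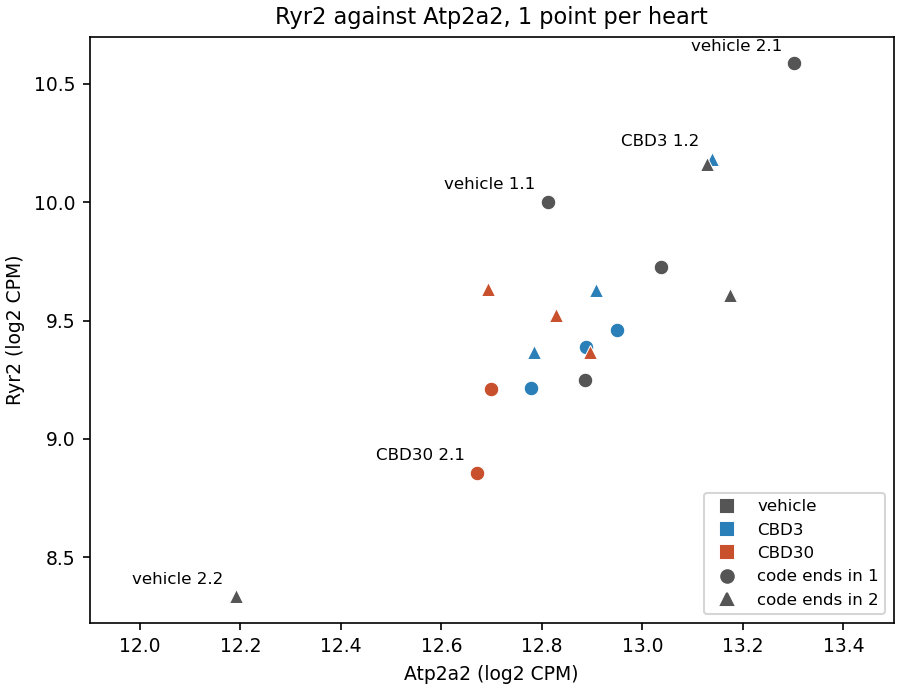
Ryr2 (y axis, log2 CPM) against Atp2a2 (x axis, log2 CPM), 1 point per heart, with colour for the group and shape for the last digit of the code. Points rise from vehicle 2.2 at the lower left to vehicle 2.1 at the upper right (Pearson r 0.853, n = 18), and CBD hearts lie between them.

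The ratio of Atp2a2 to Ryr2 counts within a library needs no scaling between libraries. It was 10.02 ± 3.02 for 7 vehicle hearts, 10.4 ± 1.48 for 6 CBD3 hearts and 11.003 ± 2.12 for 5 CBD30 hearts (± SD), in counts not corrected for transcript length. Vehicle hearts ran from 6.58 (heart 2.1) to 14.5 (heart 2.2), with a median of 9.93. CBD3 hearts ran from 7.76 to 11.8, with a median of 10.9, and the CBD30 hearts were at 8.35, 9.88, 11.2, 11.5 and 14.1. The hearts with most Ryr2 had low ratios, which is partly built in because Ryr2 is the divisor. The groups overlapped throughout.

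The mean log2 ratio differed by 0.17 for CBD30 and by 0.099 for CBD3 against vehicle (exact two-sided permutation p = 0.457 and 0.619). It differed by 0.072 between the doses and by 0.13 for both doses against vehicle (exact permutation p = 0.647 and 0.417). These sizes rested on single hearts. With each heart left out in turn, the CBD30 difference ran from 0.078 (without CBD30 2.1) to 0.27, that of CBD3 from 0.0078 to 0.20 and that of both doses from 0.040 to 0.23, with the last 2 lowest without vehicle 2.1 and all 3 highest without vehicle 2.2. After Benjamini-Hochberg adjustment over these 4 tests p was 0.647 for each. Its sign against vehicle was not the same in both code digits: 0.53 in the digit 1 hearts and -0.17 in the digit 2 hearts for CBD30, and 0.40 and -0.25 for CBD3 (exact permutation p = 0.2, 0.7, 0.257 and 0.4).

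**Figure D4:**
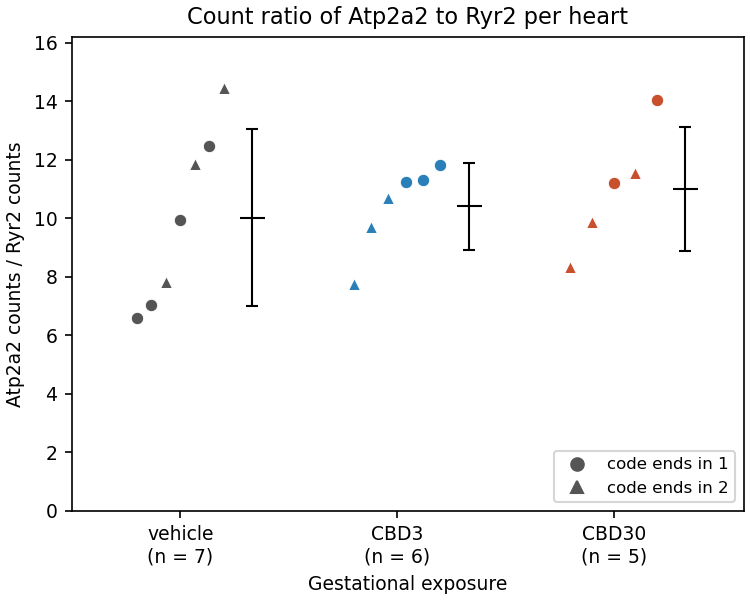
Atp2a2 counts divided by Ryr2 counts (y axis, from 0) by gestational exposure (x axis); each point is 1 heart, circles and triangles mark codes ending in 1 and 2, and the bar is the mean ± SD. Means are 10.02, 10.4 and 11.003, and the vehicle hearts run from 6.58 to 14.5.

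Genes with the pattern most like each member were sought among 13526 other genes that averaged 1 CPM or more, by Pearson r of log2 CPM over the 18 hearts. These values rank genes and carry no test. For Atp2a2 the highest were ENSRNOG00000018220 (r 0.957) and ENSRNOG00000011111 (r 0.956), with 32 genes above 0.9 and Ryr2 in place 109. For Ryr2 the highest were ENSRNOG00000010881 (r 0.975) and ENSRNOG00000007090 (r 0.974), with 154 genes above 0.9 and Atp2a2 in place 287. The median r over all these genes was -0.011 for Atp2a2 and 0.0060 for Ryr2.

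The 4 genes had the same order of group means as both members, and their spread differed. They were picked for likeness over these same hearts, so a like order and like test results are no separate evidence. ENSRNOG00000018220 was at 1217 ± 307 CPM in vehicle, 1169 ± 135 CPM in CBD3 and 1031 ± 56.4 CPM in CBD30 hearts (SD, n = 7, 6 and 5), and ENSRNOG00000011111 at 48.0 ± 10.6 CPM, 46.0 ± 4.19 CPM and 43.1 ± 3.07 CPM. For ENSRNOG00000010881, first in the Ryr2 ranking, the levels were 167 ± 79.1 CPM, 138 ± 35.7 CPM and 119 ± 36.1 CPM, so its SD did not narrow from CBD3 to CBD30. ENSRNOG00000007090 was at 115 ± 45.8 CPM, 96.2 ± 23.7 CPM and 81.0 ± 12.7 CPM. None of the 4 passed the test for CBD30 against vehicle: in the order named, log2 fold changes were -0.24 ± 0.16, -0.16 ± 0.13, -0.49 ± 0.32 and -0.50 ± 0.24 (SE; edgeR adjusted p = 0.436, 0.549, 0.435 and 0.297). No symbol is paired with these 4 IDs here.

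Other genes of calcium cycling, such as phospholamban, calsequestrin and the sodium-calcium exchanger, and markers of heart cell types were listed by symbol. They were not analysed here, because the rows of the table carry Ensembl IDs without symbols and 0 IDs could be paired with one. The tissue label was therefore not checked against markers other than the high counts of Atp2a2 and Ryr2 themselves.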

How the data were processed

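The table the authors deposited holds raw counts, as whole numbers, for each Ensembl gene in 18 heart libraries. Per the submitters' processing notes, featureCounts, edgeR and build mRatBN7.2 were used. Neither the aligner, the annotation release, the settings of the counter nor any later adjustment is stated in the sources used here. Columns were matched to samples by the codes in the labels. Of these, 14 could be given a replicate number, and 4 vehicle columns, whose codes stand on 2 samples each, entered as vehicle only.

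Of 30560 genes, 17009 passed edgeR's filterByExpr with the group as design (count of at least 10, total of at least 15), both members among them. Counts were scaled by TMM and tested in 1 fit of all samples with edgeR 4.0.16 in R 4.3.3. The test was the quasi-likelihood F test, with Benjamini-Hochberg adjustment over all tested genes and a threshold of 0.05. The same kind of fit was run on simulated counts without the filter, and its outcome is not given here. Standard errors and 95% intervals come from the F statistic. Log2 CPM used a prior count of 2. No 2 libraries of a group agreed within sampling noise (46 pairs). Alternatives were other scalings, no filter, only the groups compared, the code digit, a replicate block, each heart left out, DESeq2 1.42.0 and limma 3.58.1. The genes, lists and tests were chosen with earlier results of these data known. Named genes were both members and, for each, the 2 IDs with the highest Pearson r. The rule's listed genes could not be paired with IDs.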

Additional observations from a re-analysis of the deposited data

Results flagged for a closer look

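Among 9 sets of 5 to 7 hearts (CPM of both genes and their ratio in each group), 1 held a heart far from the others. Chance gives about 1 in 20 for each set, so 1 among 9 sets is not beyond chance. Sets of the same group share their hearts, and log2 values were not examined in this way. Ryr2 in heart CBD3 1.2 was at 1162 CPM, and the nearest other CBD3 heart was at 792 CPM. The same heart had the highest Atp2a2 of its group, 9019 CPM against 7909 CPM in the nearest. Without it the log2 fold change of Ryr2 between CBD3 and vehicle was -0.39, and that between CBD30 and CBD3 was -0.075. Without vehicle 2.1, the highest vehicle heart, the first of these was -0.044.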

How the results depend on the processing

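Of 347 values recomputed for 13 results, 326 kept their direction and their side of the threshold and 21 changed sign. None passed an adjusted p of 0.05 in any fit of either gene or of their ratio. By Pearson's r the correlation had an unadjusted permutation p under 0.05 in each of its 25 alternatives (r 0.660 to 0.930). By rank it did not pass in the digit 2 hearts (rho 0.6, exact permutation p = 0.0968). The cause of a change of sign was not tested. All values here are log2 differences. In the digit 2 hearts CBD3 against vehicle was 0.054 for Atp2a2 and 0.22 for Ryr2, and both doses against vehicle 0.091 for Ryr2. The ratio there was -0.17 for CBD30, -0.25 for CBD3 and -0.21 for both doses. Without the 3 hearts far out, chosen after the data were seen, Ryr2 was 0.046 for CBD3, and the ratio was -0.12 for CBD30, -0.10 for CBD3, -0.11 for both doses and -0.022 between doses. Leaving out single hearts gave -0.15 to 0.0067 for Atp2a2 in CBD3 (above 0 without vehicle 2.1) and -0.022 to 0.17 for the ratio between doses (below 0 without CBD30 2.1 or CBD3 1.2). For Ryr2 in CBD30 it gave -0.61 (without vehicle 2.2) to -0.28 (without vehicle 2.1).

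A fit with the replicate number as a block could use only the 14 numbered hearts, 3 of them vehicle. Codes of these vehicle hearts all end in digit 2. Vehicle 3.2 shares its replicate number with no CBD heart, so with the block its levels do not enter the comparisons. Those against vehicle then rest on vehicle 1.2 and 2.2. Vehicle 2.2 was the lowest of all hearts for Ryr2 (323 CPM) and for Atp2a2 (4675 CPM). With the replicate block Ryr2 was 0.21 for CBD30, 0.52 for CBD3 and 0.36 for both doses against vehicle, and Atp2a2 0.15 for CBD3 and 0.036 for both doses (edgeR adjusted p = 0.395 to 0.955). For Ryr2 the unadjusted p with the block was 0.367 for CBD30, 0.0285 for CBD3 and 0.0997 for both doses, and between the doses Ryr2 was -0.31 (unadjusted p = 0.0434, adjusted p = 1, edgeR). The same hearts without a block, chosen after the data were seen, gave 0.026 for Atp2a2 and 0.039 for Ryr2 in CBD3. Without the block Ryr2 was -0.19 for CBD30 and -0.078 for both doses, and Atp2a2 was -0.050 for both doses. These last values had the other sign with the block. The labels do not say whether the numbers pair the hearts. Of 8 same-numbered pairs 3 had deviations from the group means correlated above 0.1 (-0.311 to 0.467). Of 13 hearts 2 were most like a heart of their own number. Paired hearts need not be most alike, so these values cannot decide whether the numbers pair them.

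Depth does not limit these values. The spread between vehicle hearts does: the 95% interval of Ryr2 in CBD30 against vehicle runs from -50.8% to 7.29%.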
